A study of Homo sapiens with 105 samples.

Results

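The 3 chemokine genes CXCL9, CXCL10 and CXCL11 encode the interferon-inducible ligands of the receptor CXCR3. They were followed across 105 Affymetrix U133 Plus 2.0 arrays of human vaginal cells exposed to pro-inflammatory compounds (PICs), to non-inflammatory compounds (NICs) or to growth medium alone (GM). These 3 genes were chosen with earlier results of these data known. A probeset is the group of short probes that reports 1 transcript. It was taken as a member when the platform annotation gave it 1 of these 3 gene symbols. No measured value entered that match. This gave 4 of the 54675 probesets on the array, 1 each for CXCL9 and CXCL10 and 2 for CXCL11, which are told apart by the ends of their names, _at and _s_at.

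All arrays came from Vk2/E6E7, a vaginal keratinocyte line immortalized with the papillomavirus genes E6 and E7, and all cells were collected 6 h after treatment. The PICs were the cytokine TNF-α at 40 ng/ml (6 arrays), the TLR2 ligands Pam3CSK4 at 10 μg/ml (6 arrays) and MALP2 at 200 ng/ml (6 arrays), the TLR7 ligand imiquimod (IMQ, 6 arrays) and the detergent nonoxynol-9 (N-9) at 12.5 μg/ml (9 arrays). The NICs were the cellulose gels HEC and CMC, both at 1 mg/ml (9 arrays each), and 54 arrays held GM. For imiquimod the labels give 30 mg/ml and the study's methods give a dose that is lower by the step between milligram and microgram, so its dose is not settled here. The labels call the arrays of a group biological replicates, all of 1 immortalized line, without saying whether they came from separate cultures or days, so part of the scatter behind the p-values may be technical. On the normalized log2 scale used throughout, the 8 epithelial markers measured summed to between 95.5 and 111 on every array in the fit, the 8 leukocyte markers to between 37.8 and 54.8 and the 8 fibroblast and endothelial markers to between 43.7 and 54.1. The middle epithelial marker averaged between 12.97 and 13.80 over the groups and the middle leukocyte marker between 5.50 and 6.76. The middle fibroblast and endothelial marker averaged between 4.81 and 5.59. Single markers went against these middles, as COL1A1 of the fibroblast list averaged 10.83 in GM and the epithelial marker KRT13 9.66. In bulk RNA, a change in the number of cells of a kind and a change in RNA per cell cannot be told apart.

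CXCR3 sits on activated T cells, natural killer cells and other leukocytes, and its 3 ligands draw these cells into inflamed tissue, the genital mucosa among them. CXCL9 is known chiefly as a target of interferon-γ. CXCL10 and CXCL11 also respond to type I and type III interferons, and NFκB, the transcription factor that TNF-α and the Toll-like receptors turn on, acts together with interferon-driven factors at the CXCL10 gene.

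The 3 genes lie side by side on the minus strand of chromosome 4 (assembly GRCh38.p14). CXCL9 spans bases 76001275 to 76007509, CXCL10 spans 76021118 to 76023497 and CXCL11 spans 76033682 to 76036070, a stretch of 34.8 kb in all. The 250 bases before each RefSeq start are shown because CXCL10 and CXCL11 passed the test with the same compounds and CXCL9 passed with none. Short patterns, given after the sequences, were searched on both strands without mismatches, and every match is printed in capitals. The windows are chr4:76007510-76007759 for CXCL9, chr4:76023498-76023747 for CXCL10 and chr4:76036071-76036320 for CXCL11, all read on the minus strand from 5′ to 3′.
CXCL9: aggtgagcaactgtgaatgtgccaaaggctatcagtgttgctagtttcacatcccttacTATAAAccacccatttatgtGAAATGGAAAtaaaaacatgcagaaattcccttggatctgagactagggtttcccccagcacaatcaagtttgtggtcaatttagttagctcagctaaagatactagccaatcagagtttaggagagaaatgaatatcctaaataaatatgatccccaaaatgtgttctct
CXCL10: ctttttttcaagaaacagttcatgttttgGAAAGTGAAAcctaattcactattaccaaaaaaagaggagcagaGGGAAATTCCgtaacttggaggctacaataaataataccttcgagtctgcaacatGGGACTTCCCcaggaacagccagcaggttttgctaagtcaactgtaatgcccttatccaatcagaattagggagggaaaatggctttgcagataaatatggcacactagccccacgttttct
CXCL11: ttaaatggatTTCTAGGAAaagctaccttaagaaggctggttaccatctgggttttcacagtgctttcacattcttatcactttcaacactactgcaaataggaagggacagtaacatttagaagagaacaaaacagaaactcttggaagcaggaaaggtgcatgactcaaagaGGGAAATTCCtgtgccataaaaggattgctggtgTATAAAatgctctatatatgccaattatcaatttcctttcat

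The core of the interferon-stimulated response element (ISRE), searched as GAAA, NN and GAAA in direct succession, matched in CXCL9 (GAAATGGAAA, 171 to 162 bases before the start) and in CXCL10 (GAAAGTGAAA, 221 to 212 bases before the start). It matched in 3.02% of 35114 RefSeq promoter windows of the same length. The κB consensus, searched as GGG, a purine, 2 bases of any kind, 2 pyrimidines and CC, matched at 2 places in CXCL10 (GGGAAATTCC, 177 to 168, and GGGACTTCCC, 122 to 113 bases before the start) and at 1 place in CXCL11 (GGGAAATTCC, 76 to 67 bases before the start), with the CXCL10 and CXCL11 copies of GGGAAATTCC identical. It matched in 9.96% of all windows, and the ISRE core and the κB consensus matched together in 0.202% of them, CXCL10 included. The STAT pattern TTCNNNGAA matched once in CXCL11 (TTCTAGGAA, 240 to 232 bases before the start) and in 6.57% of all windows. TATAAA matched in CXCL9 (191 to 186 bases before the start), in CXCL11 (42 to 37 bases before the start) and in 10.7% of all windows. No match overlapped another. A match of letters is a description of the window and not of a site in use.

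Levels are given as quantile normalized log2 signals, so a difference of 1 is a factor of 2. A probeset was called when its change against GM had an adjusted p under 0.05 over all 54613 probesets tested and was over 2-fold. Some arrays stood apart. TNF-α replicate 6 equals the mean of replicates 1 to 3 and GM replicate 52 correlates at 0.0493 at most with any other array, so both were left out of the fit, which leaves 103 arrays. The array labelled GM replicate 15 stayed in the fit, but it goes against its label for the genes described here. It held CXCL10 at 13.67 and CXCL11 at 12.45 (_at) and 12.64 (_s_at), where the other 52 GM arrays had no CXCL10 above 8.56 and no CXCL11 above 8.90. Over the 27307 brighter probesets its deviations from the mean of all arrays correlated best with TNF-α replicates 3, 1 and 2 (r = 0.6249, 0.594 and 0.511), and next with HEC replicate 7 at 0.337. The main values include it, and values without it are given beside them or, where no call changed, once for all counts.

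CXCL10 was the member that moved most with a PIC. It stood at 13.74, 13.73, 13.79, 10.88 and 11.05 on the 5 TNF-α arrays, against a range of 6.06 to 8.56 with a median of 7.61 on the 52 GM arrays other than replicate 15. Every TNF-α array lay above all 52, and 0.123% of all probesets separated in that way. The mean was 12.64 ± 1.53 with TNF-α (SD, n = 5) and 7.73 ± 1.02 in GM (SD, n = 53). CXCL10 rose by 4.91 on the log2 scale (SE 0.43, adjusted p = 1.39e-15), which is 30.0-fold with a 95% confidence interval of 16.6 to 54.2. Without the array labelled GM replicate 15 the log2 change was 5.02 (SE 0.32).

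With Pam3CSK4, CXCL10 stood at 11.98, 11.94, 11.60, 10.79, 10.28 and 10.24. With MALP2 it stood at 12.42, 12.83, 12.63, 10.53, 10.14 and 10.66. All arrays of both treatments lay above the same 52 GM arrays, as 0.185% of all probesets did with Pam3CSK4 and 0.43% with MALP2. The means were 11.14 ± 0.80 with Pam3CSK4 and 11.54 ± 1.22 with MALP2 (SD, n = 6 each). CXCL10 rose by log2 3.41 with Pam3CSK4 (SE 0.40, adjusted p = 4.07e-10), or 10.6-fold, and by log2 3.81 with MALP2 (SE 0.40, adjusted p = 9.06e-13), or 14.0-fold. On the TNF-α arrays the CXCL10 probeset reached between 91.0% and 99.1% of the way up the ranking of all probesets of an array, whereas its mean rank in GM without replicate 15 was 63.5%.

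Imiquimod gave a mixed picture for CXCL10. Replicates 1 to 3 stood at 9.01, 9.27 and 8.88, above every GM array other than replicate 15, and replicates 4 to 6 stood at 7.54, 7.63 and 7.38, inside the GM range. How many of all probesets split in this way was not counted. The difference from GM was log2 0.55 (SE 0.40, 95% confidence interval −0.23 to 1.34, adjusted p = 0.45) and was not called. Without the array labelled GM replicate 15 it was log2 0.67 (adjusted p = 0.154). With N-9, CXCL10 ranged from a lowest value of 7.11 over a median of 7.84 to a highest of 7.99, inside the GM range, and the difference was log2 −0.11 (SE 0.33, adjusted p = 0.871).

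The gels gave no call for CXCL10. HEC arrays held 7.62 to 8.43 with a median of 8.15, and CMC arrays held 6.92 to 8.36 with a median of 7.61, all inside the range of the GM arrays. The difference from GM was log2 0.35 with HEC (SE 0.33, 95% confidence interval −0.30 to 1.01) and log2 −0.06 with CMC (SE 0.33, 95% confidence interval −0.72 to 0.60).

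**Figure D1:**
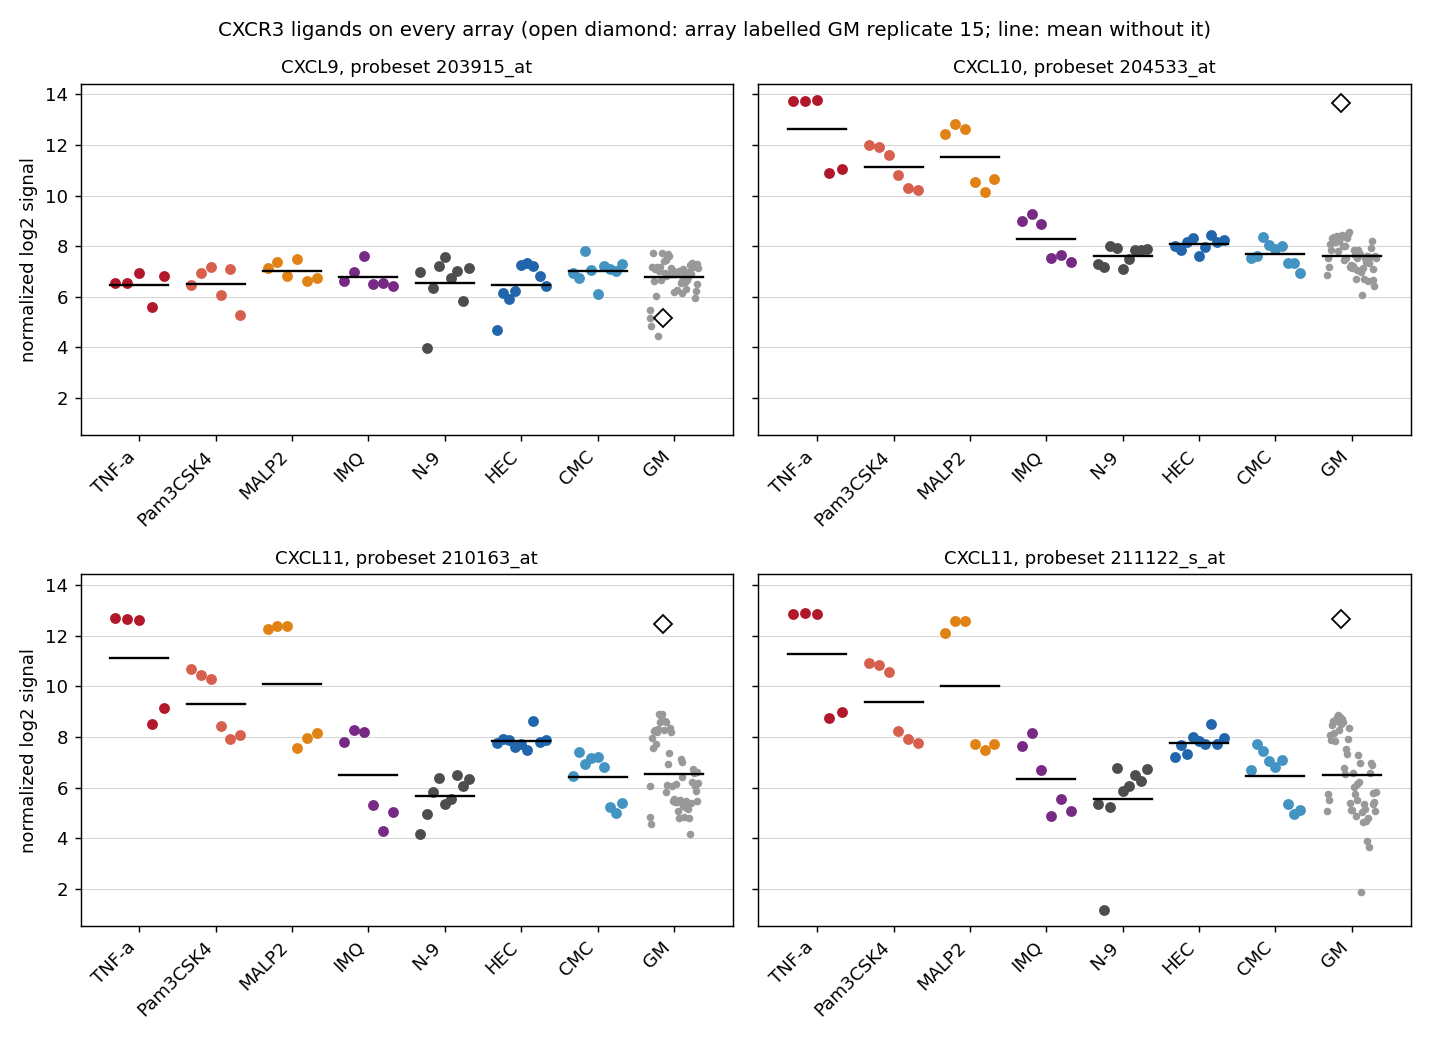
Normalized log2 signal of the 4 member probesets (vertical axis) on each of the 103 arrays in the fit, by treatment with GM last. Each point is an array, each line the group mean without the array labelled GM replicate 15, which is the open diamond. All points of TNF-α, Pam3CSK4 and MALP2 lie above the GM points for CXCL10 when the diamond is set aside, and their first 3 replicates lie above the later ones for CXCL10 and CXCL11.

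CXCL11, the ligand with the highest affinity for CXCR3, changed with the same 3 compounds but with a wider spread. On its _at probeset it stood at 12.70, 12.67, 12.64, 8.52 and 9.15 with TNF-α, against a range of 4.15 to 8.90 with a median of 6.17 on the GM arrays other than replicate 15. Of the 5 TNF-α arrays, 4 were above all of these GM arrays, and 6 of the 52 GM arrays were at or above the lowest TNF-α array. CXCL11 rose by log2 4.48 with TNF-α (SE 0.70, adjusted p = 8.38e-06), or 22.3-fold in signal. The GM median lies within the range of the 8 leukocyte markers in GM, whose means ran from 2.38 to 7.16, and whether CXCL11 was above background in GM is not known here, so the folds of CXCL11 are ratios of signals. The _s_at probeset rose by log2 4.68 (SE 0.79, adjusted p = 5.73e-05). Without the array labelled GM replicate 15 the changes of CXCL11 were log2 4.59 (_at) and 4.80 (_s_at).

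With Pam3CSK4 the _at signal of CXCL11 stood at 10.69, 10.43, 10.30, 8.42, 7.92 and 8.08. With MALP2 it stood at 12.26, 12.38, 12.36, 7.55, 7.95 and 8.15. In both treatments the first 3 arrays lay above every GM array other than replicate 15 and the last 3 lay within the GM range, although all 12 arrays exceeded the GM median. The share of all probesets with such a split was not counted. CXCL11 rose by log2 2.65 with Pam3CSK4 (SE 0.64, adjusted p = 0.00946), or 6.27-fold, and by log2 3.45 with MALP2 (SE 0.64, adjusted p = 5.19e-05), or 10.9-fold. The changes on the _s_at probeset were log2 2.78 with Pam3CSK4 (adjusted p = 0.0195) and log2 3.43 with MALP2 (adjusted p = 0.000511). The Pam3CSK4 calls of CXCL11 depended on the fit. When arrays with neighbouring replicate numbers were treated as related, the adjusted p was 0.0595 and 0.131 on the 2 probesets, and leaving out Pam3CSK4 replicate 1, 2 or 3 gave 0.0652, 0.0571 and 0.0515 on the _at probeset and 0.105, 0.102 and 0.0898 on the _s_at probeset. The fit with related arrays used 1 correlation, 0.438, for all probesets. In GM without replicate 15, sets of neighbouring numbers held 91.7% and 87.7% of the CXCL11 variance and 72.5% of that of CXCL10. For these genes that fit may therefore understate how far arrays depend on each other, also where a call was kept.

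No other treatment gave a call for CXCL11, and the estimates went both ways. With HEC the _at signal ranged from 7.50 over a median of 7.78 to 8.64, above the GM median on all 9 arrays, and the difference was log2 1.20 (SE 0.54, 95% confidence interval 0.13 to 2.27, adjusted p = 0.263). With N-9 it ranged from 4.17 over a median of 5.83 to 6.50, with 3 of 9 arrays above the GM median, and the difference was log2 −0.98 (SE 0.54, 95% confidence interval −2.05 to 0.09, adjusted p = 0.223). The shares of all probesets placed in these ways against their GM median were not counted. The differences were log2 −0.18 (SE 0.64) with imiquimod and log2 −0.26 (SE 0.54) with CMC. The 2 probesets of CXCL11 correlated at r = 0.948 over the 103 arrays, which share sets of replicate numbers and treatments, with a median difference of 0.02 between them. They were more than 1 apart on 9 arrays. The widest gap was on N-9 replicate 2, where the difference, _s_at minus _at, was −3.78.

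CXCL9 passed the test with no treatment. Its mean was 6.48 ± 0.53 with TNF-α (n = 5), 6.50 ± 0.73 with Pam3CSK4 (n = 6), 7.03 ± 0.36 with MALP2 (n = 6), 6.79 ± 0.45 with imiquimod (n = 6), 6.53 ± 1.09 with N-9 (n = 9), 6.45 ± 0.84 with HEC (n = 9), 7.03 ± 0.46 with CMC (n = 9) and 6.75 ± 0.71 in GM (n = 53; all SD). These means lie in the middle of an array, at 48.0% to 56.4% of the ranking in the treated groups and 52.4% in GM. The differences from GM ran from log2 −0.30 with HEC to 0.28 with MALP2, each with an SE between 0.26 and 0.33. At the widest, their 95% confidence intervals reached log2 −0.93 (TNF-α) and 0.89 (MALP2), so a 2-fold change in CXCL9 signal lay outside the interval of every treatment in this fit. The CXCL9 level is also within the range of the leukocyte markers, and whether it was above background is not known here, so these intervals bound the signal and not the transcript. When arrays with neighbouring replicate numbers were treated as related, the intervals of TNF-α, Pam3CSK4, MALP2, HEC and CMC took in a 2-fold change.

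Counted over the members, 3 of the 4 probesets were called higher with TNF-α, where 0.298% of all probesets were. The count was also 3 of 4 with Pam3CSK4 (0.588% of all probesets) and with MALP2 (1.34%). It was 0 of 4 with imiquimod (1.74%), with N-9 (2.26%), with HEC (0.0952%) and with CMC (0% of all probesets). Without the array labelled GM replicate 15 the counts were the same, beside 0.346%, 0.602% and 1.37% of all probesets with TNF-α, Pam3CSK4 and MALP2, 1.73% with imiquimod, 2.27% with N-9, 0.0952% with HEC and 0% with CMC. With sets of neighbouring replicate numbers as a random block, 1 of 4 was called with Pam3CSK4, where 0.266% of all probesets were. At an unadjusted p under 0.05 in limma, the 4 treatments with a count of 0 held 1 probeset, the _at probeset of CXCL11 with HEC (p = 0.0288), where 15.4% of all probesets were at such a p in either direction. Without the array labelled GM replicate 15 they held 3, both CXCL11 probesets with HEC (p = 0.0101 and 0.0262, beside 15.5% of all probesets) and CXCL10 with imiquimod (p = 0.0272, beside 21.8%). Under the test in the study's methods, which asks whether any of the 8 groups differ, both CXCL11 probesets passed as higher with HEC (0.483% of all probesets) and the _s_at probeset as lower with N-9 (1.78%). The p of that test belongs to all 8 groups together, TNF-α, Pam3CSK4 and MALP2 included, and in limma the same differences from GM had adjusted p of 0.263 and 0.339 with HEC and 0.257 with N-9. The 3 treatments with calls are set against the same GM arrays, so their estimates share that error.

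**Figure D2:**
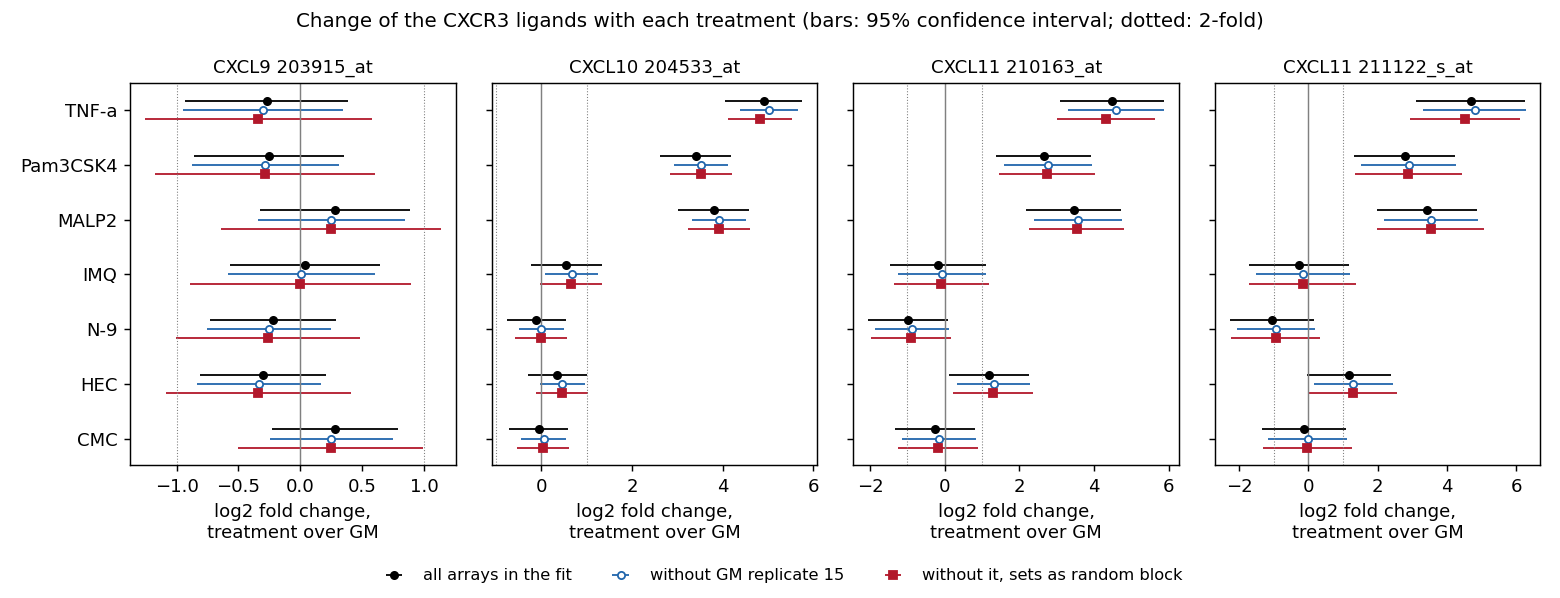
Log2 fold change of each member probeset with each treatment over GM (horizontal axis), with 95% confidence intervals. Filled circles are the fit on 103 arrays, open circles the fit without the array labelled GM replicate 15, and squares that fit with sets of 3 consecutive replicate numbers as a random block. CXCL10 and CXCL11 lie to the right of the 2-fold line with TNF-α, Pam3CSK4 and MALP2, and all CXCL9 estimates lie between −0.34 and 0.28.

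The order of the mean CXCL10 level was TNF-α (12.64), MALP2 (11.54), Pam3CSK4 (11.14), imiquimod (8.29), HEC (8.08), GM (7.73), CMC (7.67) and N-9 (7.62). Without the array labelled GM replicate 15 the GM mean was 7.617, the lowest. The difference from GM was then log2 0.05 with CMC and 0.004 with N-9, again without a call. Of the 21 pairs of treatments, 12 differed by call for CXCL10, and these were all the pairs of TNF-α, Pam3CSK4 or MALP2 with imiquimod, N-9, HEC or CMC. Of all probesets, 1.27%, 3.73%, 0.471% and 0.381% were called for TNF-α against imiquimod, N-9, HEC and CMC in that order. The shares in the same order were 1.46%, 4.97%, 2.37% and 0.643% for Pam3CSK4 and 1.01%, 5.88%, 4.1% and 2.62% for MALP2. Neighbours within the upper 3 did not pass the test. TNF-α exceeded Pam3CSK4 by log2 1.50 for CXCL10 (95% confidence interval 0.40 to 2.60, adjusted p = 0.866, with 0% of probesets called) and MALP2 by log2 1.10 (95% confidence interval 0.0006 to 2.20, adjusted p = 0.673, with 0.163% called). Among the lower 4 treatments the largest gap, imiquimod over N-9, was log2 0.66 (95% confidence interval −0.29 to 1.62, adjusted p = 0.425). In the contrasts among these 4, the share of all probesets called was 4.89% for imiquimod against N-9, 6.29% for imiquimod against HEC, 4.49% for imiquimod against CMC and 4.26% for N-9 against CMC.

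Pam3CSK4 is a triacylated and MALP2 a diacylated lipopeptide, and they were given at different doses. For CXCL10 the difference, Pam3CSK4 minus MALP2, was log2 −0.40 (95% confidence interval −1.45 to 0.65, adjusted p = 0.956, with 0.117% of all probesets called). For CXCL11 it was log2 −0.80 on the _at probeset (95% confidence interval −2.51 to 0.91, adjusted p = 0.938). These intervals still hold differences of 2-fold and more. For CXCL9 it was log2 −0.53 (95% confidence interval −1.35 to 0.28, adjusted p = 0.876). The gels HEC and CMC were given at the same dose. HEC minus CMC was log2 1.45 for CXCL11 on the _at probeset (95% confidence interval 0.06 to 2.85, adjusted p = 0.688, with 0% of probesets called) and log2 0.41 for CXCL10 (95% confidence interval −0.45 to 1.27, adjusted p = 0.888).

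For CXCL11 11 of the 21 pairs differed by call on the _at probeset and 7 of 21 on the _s_at probeset. The counts were 12 and 10 without the array labelled GM replicate 15, and 7 and 6 with sets of neighbouring replicate numbers as a random block. The pairs included N-9 against HEC, where N-9 was lower by log2 −2.17 (SE 0.70, adjusted p = 0.035), a contrast in which 2.9% of all probesets were called. The _s_at probeset gave −2.22 (adjusted p = 0.0667), and with neighbouring replicate numbers treated as related the _at probeset gave an adjusted p of 0.116. TNF-α exceeded HEC by log2 3.28 for CXCL11 (adjusted p = 0.0315, and 0.212 with the block), while Pam3CSK4 minus HEC was log2 1.45 (adjusted p = 0.3) and MALP2 minus HEC log2 2.25 (adjusted p = 0.0556, and 0.0355 without the array labelled GM replicate 15). For CXCL9 no pair of treatments passed, and the smallest adjusted p was 0.363.

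The replicates of 1 treatment were not alike for CXCL10 and CXCL11. Replicate numbers fall into sets of 3 consecutive numbers whose arrays resemble each other. Deviations from the group mean correlated with a median r of 0.607 between arrays of the same set and −0.102 between other arrays of the same group. The labels do not say what a set is. In each of the 4 treatments with 2 sets, CXCL10 and CXCL11 were higher in the first than in the second. The mean CXCL10 level with TNF-α was 13.76 in replicates 1 to 3 and 10.96 in replicates 4 and 5, a gap of 2.79, and 391 of the 54613 probesets had a wider gap. It was 2.19 with MALP2, 1.53 with imiquimod and 1.40 with Pam3CSK4, where 1407, 4416 and 3539 probesets had wider gaps.

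For CXCL11 on the _at probeset the gap between the sets was 4.45 with MALP2, 3.84 with TNF-α, 3.23 with imiquimod and 2.33 with Pam3CSK4. In that order 110, 61, 429 and 573 probesets had wider gaps. For CXCL9 the gaps were 0.15, 0.47, 0.58 and 0.72. All 12 interferon-stimulated genes measured, such as IFIT1 and MX1, were higher in the first set in each of the 4 treatments, with a median gap of 4.09 with imiquimod, 3.72 with MALP2, 2.39 with TNF-α and 2.03 with Pam3CSK4. The median gap of all probesets was between −0.003 and 0.008. A sign of RNA quality moved with some of these splits. The ACTB signal at the 3′ end minus that at the 5′ end averaged 1.45 in the first imiquimod set and 0.46 in the second, 0.67 and 0.31 in the MALP2 sets, 0.49 and 0.30 in the TNF-α sets and 0.24 and 0.42 in the Pam3CSK4 sets, beside 0.43 ± 0.28 in GM (SD, n = 53). Its part in the CXCL10 and CXCL11 levels was not tested. Of the 8 leukocyte markers, 2 were higher in the first set with imiquimod, 4 with MALP2, 1 with TNF-α and 4 with Pam3CSK4. Some epithelial markers moved with the split in the other direction. The first set minus the second was log2 −4.29 with imiquimod, −3.05 with MALP2, −4.13 with TNF-α and −1.49 with Pam3CSK4 for KRT13, a keratin of stratified mucosa. For KRT16, a keratin of stressed epithelium, it was −2.96, −1.83, −2.50 and −1.21, and for the desmosomal cadherin DSG3 −1.26, −1.80, −1.36 and −0.65, with the treatments in the same order. The basal keratins KRT5 and KRT14 differed by no more than 0.19 in either direction. Of the 8 epithelial markers, 4 were higher in the first set with imiquimod, 3 with MALP2, 2 with TNF-α and 4 with Pam3CSK4. Their part in the CXCL10 and CXCL11 levels was not tested.

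The sets were then taken one at a time, a split made after these gaps were seen. Arrays of a set resemble each other and may amount to 1 replicate, whereas these p-values take them as independent. CXCL10 kept its call in both sets of each of the 3 compounds. Against all GM arrays, CXCL10 rose by log2 6.02 in TNF-α replicates 1 to 3 (adjusted p = 2.81e-15) and by 3.23 in replicates 4 and 5 (adjusted p = 0.00399). It rose by 4.11 and 2.71 in the first and second Pam3CSK4 sets (adjusted p = 2.15e-07 and 0.00143) and by 4.90 and 2.71 in the MALP2 sets (adjusted p = 2.15e-11 and 0.000228). CXCL11 was called in the first set of each of these compounds and in none of the second sets. On the _at probeset its change was log2 6.01, 3.82 and 5.68 in the first sets of TNF-α, Pam3CSK4 and MALP2 (adjusted p = 1.14e-06, 0.0101 and 5.12e-07). In the second sets it was log2 2.18, 1.48 and 1.22 (adjusted p between 0.572 and 0.992). The share of all probesets called higher was 0.471% and 0.0623% in the first and second TNF-α sets, 0.388% and 0.511% in the Pam3CSK4 sets and 1.28% and 1.23% in the MALP2 sets.

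**Figure D3:**
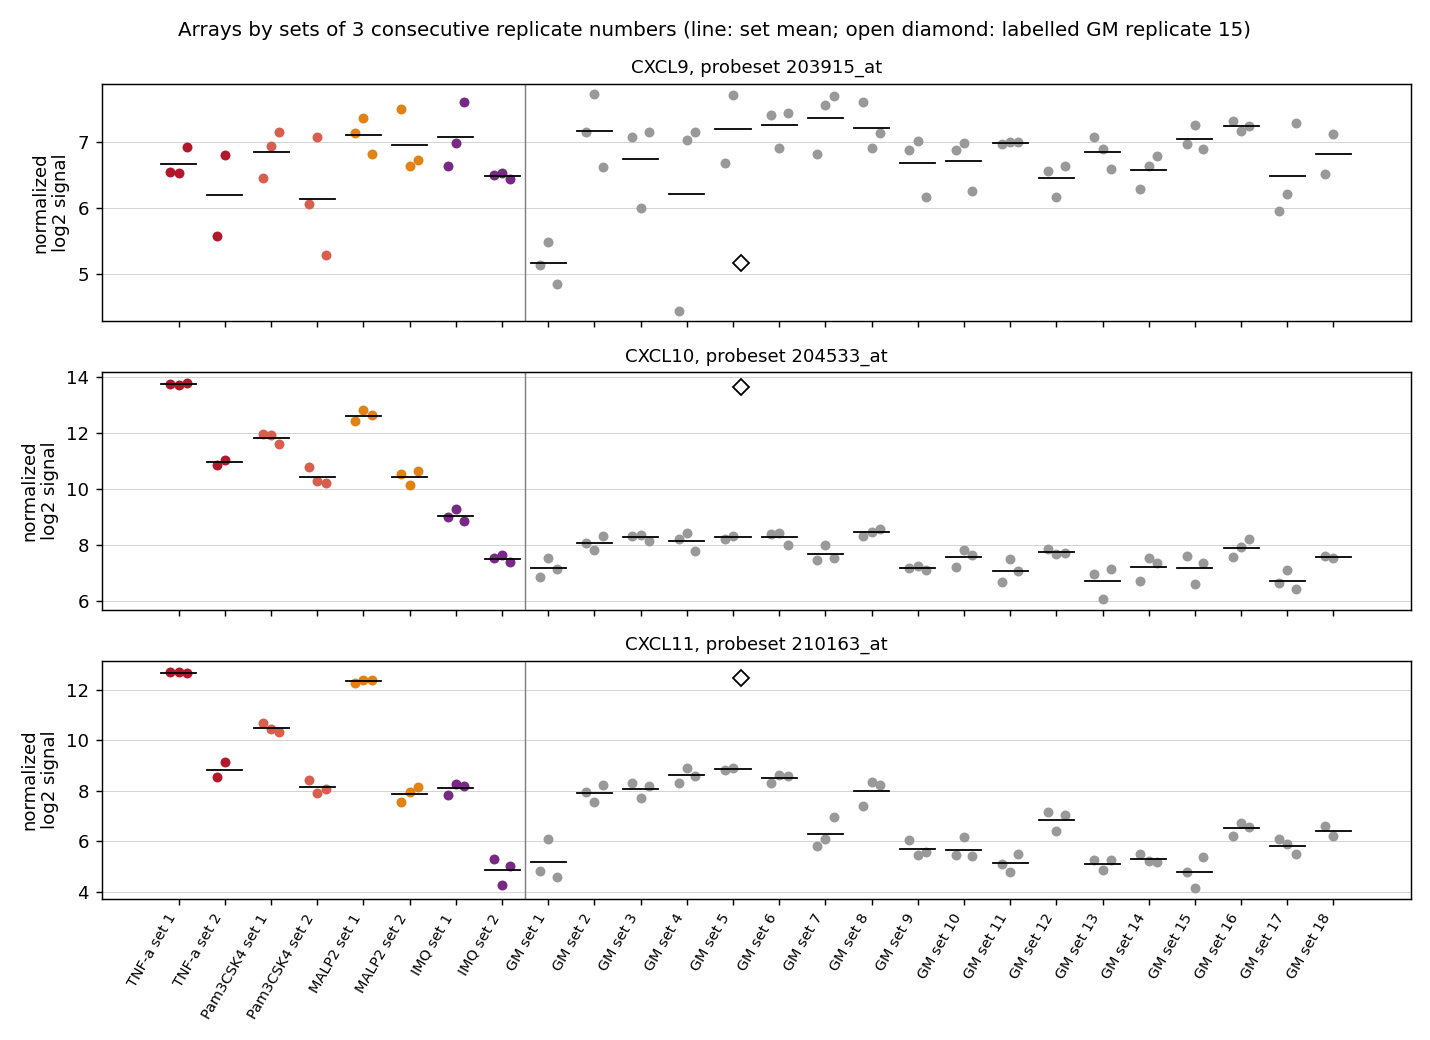
Normalized log2 signal of CXCL9, CXCL10 and CXCL11 (vertical axis) by sets of 3 consecutive replicate numbers, for the 4 treatments with 2 sets and then for the 18 GM sets. Points are arrays, lines are set means without the array labelled GM replicate 15 (open diamond). First sets lie above second sets for CXCL10 and CXCL11, and the GM set means of CXCL11 run from 4.78 to 8.85.

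Untreated cells showed a similar grouping for CXCL11. Over the 52 GM arrays without replicate 15, in 18 sets, 91.7% of the variance of CXCL11 lay between sets on the _at probeset and 87.7% on the _s_at probeset. For CXCL10 the share was 72.5% and for CXCL9 37.2%, and the median over all probesets was 38.2%. The SD of CXCL11 between sets was 1.35 on the _at probeset, larger than that of 98.9% of all probesets, and the SD within sets was 0.41. The set means of CXCL11 ran from 4.78 to 8.85 and those of CXCL10 from 6.73 to 8.45. On the _at probeset the second TNF-α, Pam3CSK4 and MALP2 sets of CXCL11, with means of 8.83, 8.14 and 7.88, lay below the highest GM set. On the _s_at probeset the second TNF-α set, at 8.86, lay above the highest GM set, at 8.76, and the other sets, at 7.97 with Pam3CSK4 and 7.64 with MALP2, lay below it. All CXCL10 set means of these compounds, the lowest 10.44, lay above every GM set mean.

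CXCL10 and CXCL11 moved together across arrays. Between CXCL10 and the _at probeset of CXCL11, Pearson's r was 0.889 over the 103 arrays and 0.824 over the 52 GM arrays alone, arrays that share replicate sets and, in the first case, treatments. For CXCL9 r was −0.028 with CXCL10 and 0.043 with CXCL11 over the 103 arrays, and 0.197 and 0.217 over the 52 GM arrays.

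**Figure D4:**
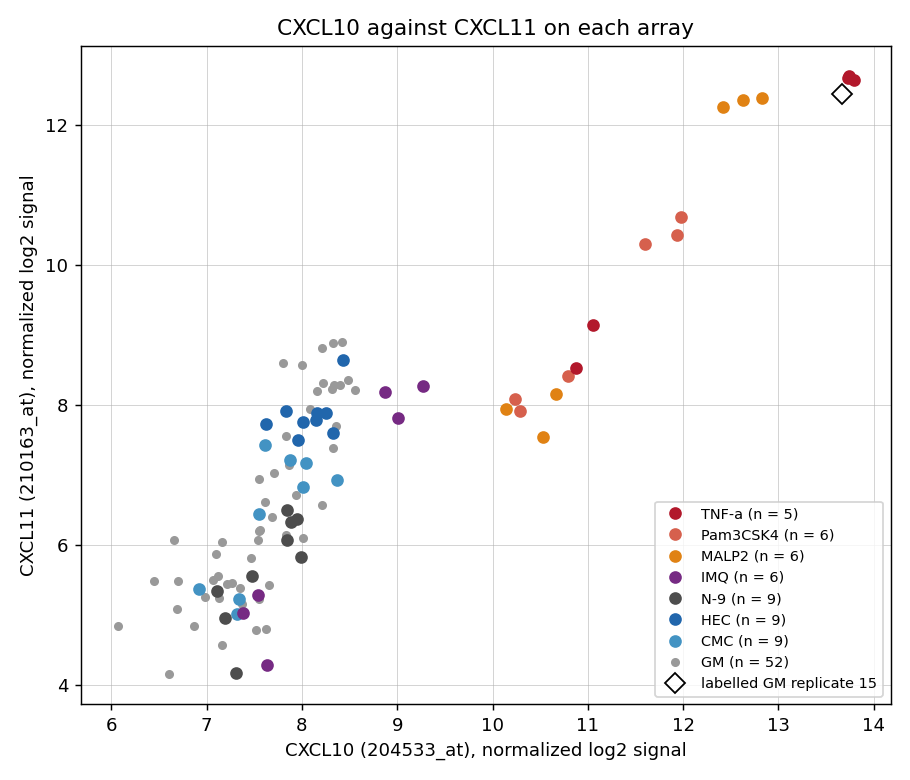
Normalized log2 signal of CXCL10 (horizontal axis) and CXCL11 (vertical axis) on each of the 103 arrays, coloured by group. The points rise together (r = 0.889 over all arrays), with the TNF-α, Pam3CSK4 and MALP2 arrays at the upper right and the array labelled GM replicate 15 (open diamond) beside TNF-α replicates 1 to 3.

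The genes whose level was most like that of CXCL10 over the 103 arrays were CXCL11 (r = 0.889), TAP1 (0.857), which carries peptides to class I molecules, the RNA sensor RIGI (0.852), SAMD9L (0.843) and the guanylate-binding protein gene GBP3 (0.825). Those most like CXCL11 were IFIT3 (0.928), PARP9 (0.919), IFI44 (0.914), CMPK2 (0.908) and RIGI (0.904), all genes known to respond to interferon. They were chosen for this likeness over the same arrays, so their changes with treatment are given no test in that role. TAP1 is also on a pathway list, and its change on the same probeset is given below with its p from the limma fit. The genes most like CXCL9 were XAGE-4, UBOX5, MMP14, USP40 and BPIFA3, with r between 0.552 and 0.619, and none of them is among the genes most like CXCL10 or CXCL11.

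The other genes of the pathway were counted in 7 lists of receptors, interferons, signalling components and targets, chosen with earlier results of these data known, and a gene counted as changed at an adjusted p under 0.05 alone. Of 60 genes measured, 14 rose and 0 fell with TNF-α (0.526% of all probesets rose and 0.196% fell). With Pam3CSK4 10 rose and 0 fell (1.31% and 0.859%), and with MALP2 27 rose and 0 fell (3.28% and 3.66%). With imiquimod 9 rose and 0 fell (4.68% and 6.19%), and with N-9 7 rose and 7 fell (7.35% and 10.1%). With HEC (0.328% and 0.465%) and with CMC (0% and 0.00183%) no gene of the lists passed in either direction. The median log2 change of the 60 genes was 0.77 with MALP2, 0.35 with Pam3CSK4, 0.70 with TNF-α and 0.14 with imiquimod, where that of all probesets was between −0.02 and 0.01. With sets as a random block the counts of higher genes were 20 with MALP2 (1.73% of all probesets), 5 with Pam3CSK4 (0.419%), 4 with TNF-α (0.201%), 6 with imiquimod (2.44%) and 4 with N-9 (3.46%), and 3 were lower with N-9 (5.37%). Adjusted p-values under this block are given below as blocked where a call is lost.

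On the receptor side, CXCR3 itself stood at 6.81 ± 0.42 with TNF-α (n = 5), 6.74 ± 0.25 with Pam3CSK4 (n = 6), 6.52 ± 0.46 with MALP2 (n = 6) and 6.52 ± 0.88 in GM (n = 53; all SD), near the middle of an array, where a change may be hard to see, and no treatment passed the test. ACKR3, the scavenging receptor that also binds CXCL11, was bright, with 11.86 ± 0.34 with N-9 (n = 9) and 12.48 ± 0.45 in GM (n = 53; SD), and fell by 0.62 on the log2 scale with N-9 (SE 0.15, adjusted p = 0.00124). DPP4, the protease that trims the first residues of all 3 ligands, did not pass with any treatment, with differences from log2 −0.85 with N-9 (adjusted p = 0.213) to 1.18 with MALP2 (adjusted p = 0.232).

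Among the interferons, IFNK, the type I interferon of keratinocytes, changed most. It averaged 9.93 ± 0.40 with MALP2 and 8.83 ± 0.72 with imiquimod (SD, n = 6 each), 3.30 ± 1.94 with N-9 (SD, n = 9) and 5.48 ± 1.77 in GM (SD, n = 53). Its levels with N-9 and in GM lie within the range of the leukocyte marker means in GM, 2.38 to 7.16. Whether IFNK was above background there is not known, so its changes are ratios of signals. IFNK rose by log2 4.45 with MALP2 (SE 0.65, adjusted p = 1.57e-07) and by log2 3.35 with imiquimod (SE 0.65, adjusted p = 5.86e-05), and fell by 2.18 on the log2 scale with N-9 (adjusted p = 0.00154). IFNB1, the type I interferon of most cells, was dim, with 4.02 ± 1.01 with MALP2 and 2.91 ± 0.55 in GM. It rose by log2 1.11 with MALP2 (adjusted p = 0.00329, blocked 0.204) and by log2 0.67 with N-9 (adjusted p = 0.0277, blocked 0.332), and its difference was log2 0.25 with TNF-α (adjusted p = 0.892) and 0.03 with Pam3CSK4 (adjusted p = 0.985). IFNG, the interferon-γ gene, passed with no treatment, with differences from log2 −0.36 with TNF-α to 0.36 with N-9.

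Of the 10 transcription factors, 7 rose with MALP2, 4 each with TNF-α, Pam3CSK4 and imiquimod, and 3 with N-9. With the block 5 rose with MALP2, 3 with Pam3CSK4, 2 each with imiquimod and N-9 and 1 with TNF-α. RELB, an NFκB subunit, rose by log2 1.31 with Pam3CSK4 (adjusted p = 2.52e-07) and by log2 1.22 with imiquimod (adjusted p = 2.02e-07). IRF7, which drives interferon genes, rose by log2 1.43 with TNF-α (adjusted p = 0.042, blocked 0.175) and by log2 2.13 with MALP2 (adjusted p = 2.77e-06). IRF9, the DNA-binding partner in the complex that reads the ISRE, rose by log2 0.86 with Pam3CSK4 (adjusted p = 0.0474, blocked 0.158) and by log2 0.96 with MALP2 (adjusted p = 0.00681). IRF1, a factor that interferon-γ induces, passed with no treatment, and its difference was log2 0.51 with TNF-α (adjusted p = 0.445).

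Feedback inhibitors and targets gave further changes. USP18, which damps the type I interferon receptor, rose by log2 2.40 with TNF-α (adjusted p = 0.0168, blocked 0.0955) and by log2 2.81 with MALP2 (adjusted p = 6.24e-05), and fell by 1.32 on the log2 scale with N-9 (adjusted p = 0.0252, blocked 0.0737). SOCS1, an inhibitor of JAK kinases, rose by log2 1.62 with imiquimod (adjusted p = 1.85e-10) and by log2 1.39 with N-9 (adjusted p = 3.9e-11). SOCS1 also rose by log2 1.59 with MALP2 (adjusted p = 6.97e-10) and by log2 1.10 with TNF-α (adjusted p = 0.000685), and its difference was log2 0.65 with Pam3CSK4 (adjusted p = 0.0519). GBP1, a guanylate-binding protein, rose by log2 2.24 with TNF-α (adjusted p = 0.00321), 2.20 with Pam3CSK4 (adjusted p = 0.00058) and 2.81 with MALP2 (adjusted p = 7.54e-07), and fell by 1.14 on the log2 scale with N-9 (adjusted p = 0.0178, blocked 0.0535). TAP1 rose by log2 1.24 with Pam3CSK4 (adjusted p = 0.00968, blocked 0.0611). As TAP1 is also among the genes most like CXCL10 over these arrays, its rise is not separate support.

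Of the 12 interferon-stimulated genes, 3 rose with TNF-α, among them XAF1, a pro-apoptotic factor, by log2 2.39 (adjusted p = 0.0237, blocked 0.182) and IFIT3, which acts against viral RNA, by log2 2.30 (adjusted p = 0.0483, blocked 0.163, on another probeset than the one most like CXCL11). With Pam3CSK4 1 rose, the antiviral enzyme RSAD2, by log2 2.38 (adjusted p = 0.022, blocked 0.118). With MALP2 6 rose, with the antiviral GTPase MX1 up by log2 2.61 (adjusted p = 0.0147), and 1 rose with imiquimod, the exonuclease ISG20, by log2 1.18 (adjusted p = 0.00254). With the block 4 rose with MALP2, 1 with imiquimod and 0 with Pam3CSK4 or TNF-α. With N-9, HEC and CMC 0 of 12 passed in either direction in both fits. The median difference of the 12 was log2 0.98 with HEC, where the median of all probesets was 0.002.

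**Figure D5:**
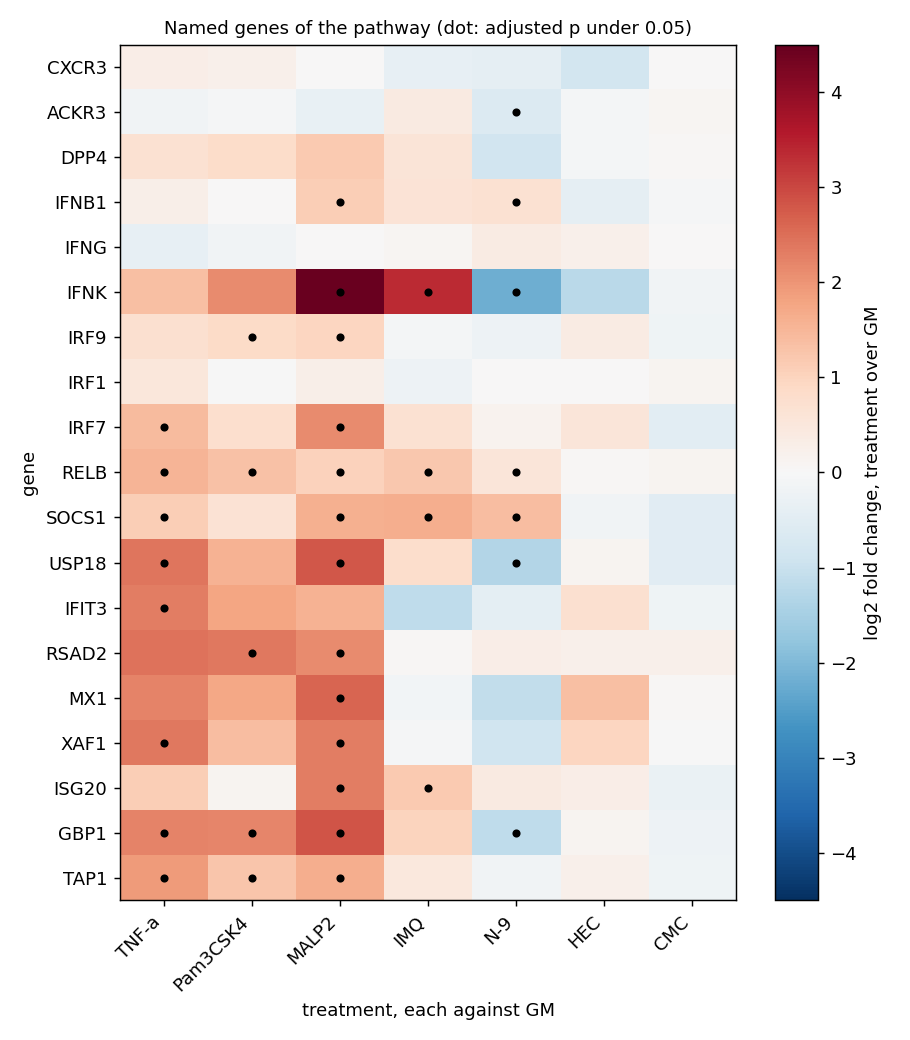
Log2 fold change over GM (colour) of the named pathway genes (rows) with each of the 7 treatments (columns), where a dot marks an adjusted p under 0.05. IFNK has the deepest colours, at 4.45 with MALP2 and 3.35 with imiquimod, and HEC and CMC have no dot.

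The genes that lie next to the CXCR3 ligands on chromosome 4 were looked at after the values were seen, so they are given without a test. With TNF-α their differences from GM ran from log2 −0.59 (PPEF2) over −0.48 (SDAD1), −0.03 (SCARB2), 0.18 (NUP54) and 0.20 (ART3, whose gene spans CXCL10 and CXCL11) to 0.22 (NAAA). With MALP2 they ran from log2 −0.48 (SDAD1) to 0.78 (PPEF2). The changes of CXCL10 with these compounds, log2 4.91 and 3.81, were larger than those of all 6 neighbours.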

How the data were processed

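The values are those the authors deposited, a series table of log2 signals for all 105 arrays. MAS5 and GCOS 1.3 are the tools in the processing notes of the submitters, whereas the study's methods name RMA. The deposited values, turned back from log2, lie on steps of 0.1 with a trimmed mean near 500.07 per array, the form of MAS5 signals, which leaves dim probesets noisier. Arrays were quantile normalized after 62 control probesets were set aside. GM replicate 52 and TNF-α replicate 6 were left out. limma 3.58.1 (R 4.3.3, data.table in version 1.17.8) fitted 1 mean per group over 103 arrays with empirical Bayes moderation and Benjamini-Hochberg adjustment over 54613 probesets. All tests are two-sided. The fit was checked on simulated arrays with known changes. Their noise was drawn independently for each array, without sets, so the check does not bear on p-values where arrays of a set resemble each other.

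Sets of 3 consecutive replicate numbers served as a random block (1 correlation of 0.438 for all probesets) in an alternative. Genes were named by the brightest probeset that names them alone, with symbols updated to GRCh38.p14, from an annotation in which 41097 probesets have 1 gene, 1801 several and 11777 none. Named genes are the members, for each treatment the 4 pathway genes with the largest change among those that passed, a fixed group of receptors, interferons and factors, and the 5 genes most like each member. The members and lists were chosen with earlier results of these data known. Of 63 pathway genes listed 60 were measured, and the others were not analysed here. The number of arrays limits the precision. Promoter sequences are from RefSeq, in which all 3 members matched.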

Additional observations from a re-analysis of the deposited data

Results flagged for a closer look

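N-9 replicate 2 stood apart from the other 8 N-9 arrays as the lowest for CXCL9, at 3.98, and for CXCL11 on the _s_at probeset, at 1.17. HEC replicate 7 was the highest of the 9 HEC arrays for CXCL11 on the _at probeset, at 8.64. Chance alone flags about 1 in 20 groups, and 28 groups of arrays were looked at.

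TNF-α replicate 6 was left out of the main fit. Its deposited log2 values were 13.76 for CXCL10, 12.73 for CXCL11 on the _at probeset and 12.94 on the _s_at probeset. They lie above the highest deposited GM values other than those of replicate 15, at 8.53, 8.88 and 8.82. TNF-α replicate 6 equals the mean of TNF-α replicates 1 to 3 and adds no observation of its own.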

How the results depend on the processing

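Settings were varied for the 4 member probesets against GM. Of these comparisons, 584 kept their side of the threshold, 17 lost a call and 3 gained one. Many had no call in the main fit, such as all those of CXCL9, and so had none to lose. Dropping the fold limit could only add calls. The filter on dim probesets kept a probeset by its highest group mean, so a member could pass it through a treated group alone. The tally is therefore no measure of how firm the calls are. Where the main or the alternative result was called, 0 reversed in direction. Estimates without a call could change sign, and that of CXCL11 (_at) with imiquimod ran from log2 −1.79 to 1.43. CXCL10 kept its calls with TNF-α, Pam3CSK4 and MALP2 in all settings run. A fit with the left-out TNF-α and GM arrays put back was among these settings, and it adds no TNF-α observation. The CXCL11 call with Pam3CSK4 was the least stable. Under the random block for sets its log2 change was 2.65 (_at) and 2.79 (_s_at) without a call, which leaves a count of 1 called member, and with the array labelled GM replicate 15 left out as well the _s_at value was 2.88 without a call. With GM replicates 1 to 9 alone as controls the _s_at value was 2.11 without a call. Leaving out 1 Pam3CSK4 array at a time gave 2.37 to 2.93 (_at) and 2.47 to 3.10 (_s_at), with 1 to 3 members called. With the second set alone, an alternative chosen after seeing the data, CXCL11 lost its calls at 2.18 (_at) and 2.27 (_s_at) with TNF-α, 1.48 and 1.37 with Pam3CSK4, and 1.22 and 1.04 with MALP2, with 1 member called in each. Under the methods' test CXCL11 gained calls at 1.20 (_at) and 1.18 (_s_at) with HEC, a count of 2, and at −1.05 (_s_at) with N-9. Under the random block 4 pathway genes were higher with TNF-α, 5 with Pam3CSK4 and 4 with N-9 (3.46% of all probesets), and 3 were lower with N-9 (5.37%). The cause of these changes was not tested. Without quantile normalization the median of all probesets moved to 0.16 with N-9 and 0.13 with HEC.

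The labels give the groups shared replicate numbers but no shared origin for them, and the deviations of same-numbered treated and GM arrays correlated between −0.528 and 0.721. The median r was 0.425 with N-9, 0.379 with HEC and −0.457 with CMC, and between −0.087 and 0.042 with the other treatments. Whether same-numbered arrays share an origin was not tested. With the replicate number as a block, CXCL11 with Pam3CSK4 changed by log2 2.22 on the _s_at probeset without a call, and the other calls of the members against GM stayed on their side of the threshold. Signals near the lower end of an array, such as those of IFNB1, are the least precise.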
